A study of Arabidopsis thaliana with 4 samples.

Results

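Set TB is a series of 100 plates, TB00 to TB99, that supplied genomic tiles for an array on which H4K20me1, the monomethylated form of lysine 20 in the tail of histone H4, was mapped in Arabidopsis thaliana. Members were all tiles named TB, a plate number from 00 to 99, a row letter from A to H and a column number, with a value in both replicates. Of 9600 such names, 9598 had values, and the wells TB82G09 and TB85A07 were empty. These tiles made up 44.1% of the 21743 tiles with a value. The deposited table pairs tiles with neither genes nor genome positions, so regions are named here by plate and well, and wells that follow each other in the order of names are called neighbours.

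The material was untreated seedlings of ecotype col-0, aged 10 days, grown in liquid 0.5X MS medium at 22 °C with a 16 h photoperiod. There was 1 group, in which DNA precipitated with an antibody to H4K20me1 (IP) was hybridised together with unselected DNA (INPUT), in 2 replicates named I and II, each on a pair of arrays with exchanged dyes. The paired columns held the same value at all 21743 tiles, so each replicate gave 1 value per tile and the 4 arrays counted as n = 2. Whole seedlings were used, so every value averages over the cell types of the plant. No label says that the replicates came from separate cultures, so the spread between the 2 samples may be technical. Each p-value uses that spread pooled, in part or wholly, over the fitted tiles, plates or rows.

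Histone H4 lysine 20 is methylated to different degrees by dedicated enzymes, and the mono-, di- and trimethylated forms occupy different parts of the genome. In Arabidopsis nuclei the monomethylated form has been seen by microscopy in the compact heterochromatin of the chromocentres. On an array of tiles, a domain of such a mark appears as a run of neighbouring tiles with a raised ratio of IP to INPUT, while a tile that stands alone has no support from its neighbours.

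Values are log ratios of unstated base, minus the median of all tiles in the same replicate. The sources do not state which channel is the numerator. IP over INPUT is taken as likely, on no other basis than that high values reach farther from the median than low ones. If the ratio runs the other way, tiles counted here as higher are lower ones. Within TB the asymmetry was present as well. In replicate I the top 1% of TB tiles began 1.32 above the TB median and the bottom 1% began 1.05 under it, and in replicate II the distances were 1.28 and 1.03.

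As a whole, TB lay below the middle of the array. In replicate I its median was -0.168 and in replicate II -0.136, against 0.174 and 0.117 over all other tiles, a difference of -0.298 ± 0.062 (SD, n = 2). The other tiles include plates TC17 to TC30, TA35 to TA51 and TA21 to TA30, stretches of high plates picked from these same values. Against the other tiles without these stretches, TB was lower by -0.129 in replicate I and -0.100 in replicate II. The difference was -0.138 ± 0.0371 (SD, n = 2) from the TA plates outside the stretches and 0.0647 ± 0.0378 (SD, n = 2) from TC00 to TC13, so TB stood between them in both replicates. An exact sign-flip test over 2 replicates cannot give a p under 0.5, and no test of these differences was made.

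Most TB plates lay under the array's median, and 1 plate stood far above the rest. The median of plate TB25 was 0.421 and 0.417 in replicates I and II, and its mean of 0.419 ± 0.00307 (SD, n = 2) gave a limma adjusted p of 0.00379. It was the only TB plate called higher (1 of 100, or 1%), where 22.9% of all 231 plates were, a share that includes the high stretches. The next plate, TB70, had 0.209 and 0.0743 and was not called (limma adjusted p = 0.118). TB24 (0.166 and -0.0646), TB01 (0.0144 and 0.057), TB34 (0.091 and -0.0286) and TB28 (0.0317 and 0.0219) completed the 6 highest plates, and the replicates of TB24 and TB34 lay on opposite sides of 0. Only 4 of the 100 plates had a median above 0 in both replicates, and 83 lay under 0 in both.

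At the low end, 40 of the 100 plates were called lower in limma, where 25.5% of all plates were. That share includes the TB plates themselves and the high stretches. TB88 was the lowest, at -0.52 and -0.304 (limma adjusted p = 0.0109). TB87 (-0.381 and -0.274), TB94 (-0.318 and -0.326), TB96 (-0.35 and -0.274), TB89 (-0.413 and -0.208) and TB41 (-0.226 and -0.347) followed, and all 6 were low in both replicates. The lower calls depend on where 0 is set. Centring on the TB median left 1 plate called lower and 2 called higher. With the threshold moved to 0.01, 0 plates were lower in limma, and 52 had an unadjusted p under 0.05.

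**Figure D1:**
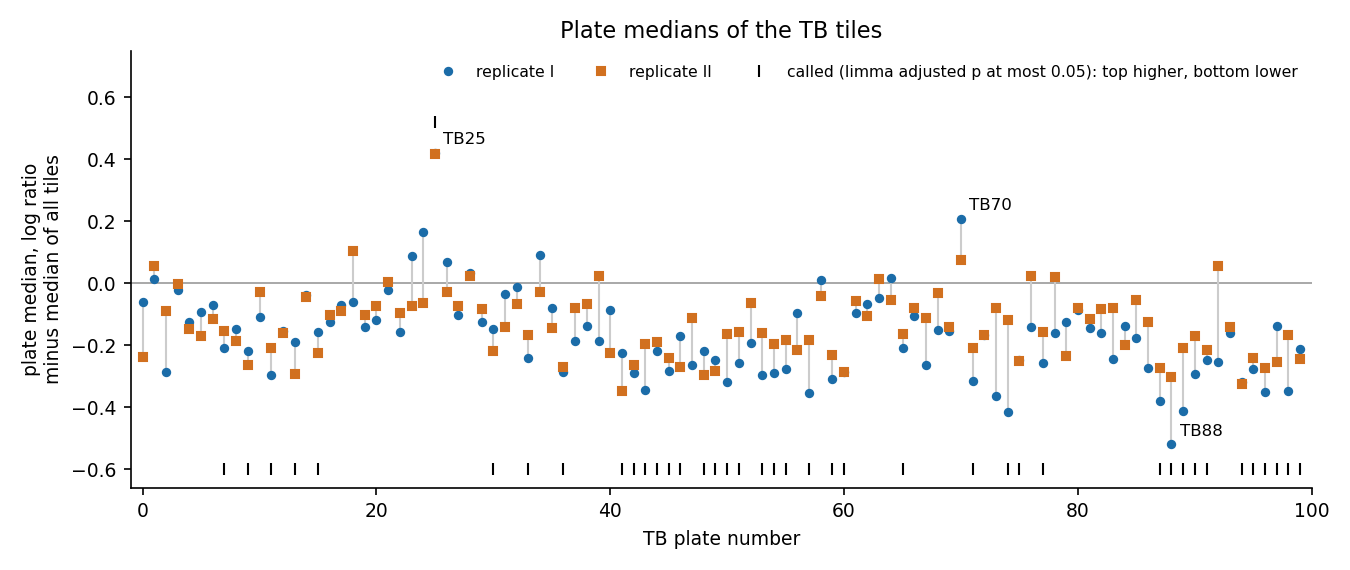
Median log ratio of each TB plate (vertical axis, minus the median of all tiles) against plate number, with blue circles for replicate I, orange squares for replicate II and a grey line joining them. Ticks at the top and bottom mark plates called higher or lower by limma. TB25 stands at 0.421 and 0.417, while the other plates scatter between -0.52 and 0.209.

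Blocks of 10 plates gave the broad shape of the profile. The highest block was TB20 to TB29, with medians of 0.0291 (I) and -0.0244 (II), and it was the only block with a median above 0 in either replicate. The lowest were TB90 to TB99 (-0.269 and -0.214) and TB40 to TB49 (-0.234 and -0.24), followed by TB50 to TB59 (-0.258 and -0.156), TB80 to TB89 (-0.249 and -0.137) and TB70 to TB79 (-0.199 and -0.122). The remaining blocks lay close together: TB10 to TB19 had -0.126 and -0.139, TB00 to TB09 had -0.12 and -0.142, TB30 to TB39 had -0.132 and -0.117, and TB60 to TB69 had -0.14 and -0.0936. TB40 to TB49 and TB90 to TB99 each held 8 of the 40 lower plates and TB50 to TB59 held 7, whereas TB20 to TB29 held none. Plates explained little of the variation between tiles. They accounted for 6.02% of the variance of tile means in TB and for 13.0% in the TA plates outside the stretches. Over the 100 plates the medians of the replicates correlated at 0.665, and at 0.579 without TB25, as a description over plates that share their arrays.

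Rows of 12 wells, a fixed unit of the plate layout, located the high signal more closely. Of 800 TB rows, 17 were called higher (2.12%), where 17.1% of all 1817 rows were. Lower calls numbered 135 (16.9%), where 11.8% of all rows were called lower (limma on row medians). The shares over all rows include the high stretches. In the row fit the variance was pooled wholly over rows, so a row's p follows its mean and not its own replicate spread. TB24H was the highest, with medians of 0.733 (I) and 0.597 (II) (limma adjusted p = 2.432e-05). TB25C (0.715 and 0.602), TB25A (0.724 and 0.556), TB06F (0.677 and 0.544), TB25B (0.679 and 0.537) and TB18G (0.428 and 0.469) came next, with limma adjusted p-values from 2.918e-05 to 0.00769. These 6 rows come from 3 places only, TB24 to TB25, TB06 and TB18. Plates TB24 and TB25 held 5 of the 17 higher rows, and without both plates 12 remained. Higher rows were uneven along the set, with 14 on plates below TB40 and 3 on the other 60 plates. Single tiles called higher in limma were spread more evenly, with 71 of 130 on those 60 plates. The split was chosen after the values were seen and was not tested. When the replicates were scaled to the same median absolute deviation, 8 rows were higher and 55 lower in limma.

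The lowest row was TB98D, at -0.791 and -0.862 (limma adjusted p = 7.676e-08). TB87C had -0.684 and -0.728, TB74C -0.785 and -0.539, TB89F -0.607 and -0.669, TB98C -0.59 and -0.653, and TB39C -0.564 and -0.661. All 6 were low in both replicates, and TB98C and TB98D are next to each other. Centring on the TB median left 10 rows called lower and 26 called higher.

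**Figure D2:**
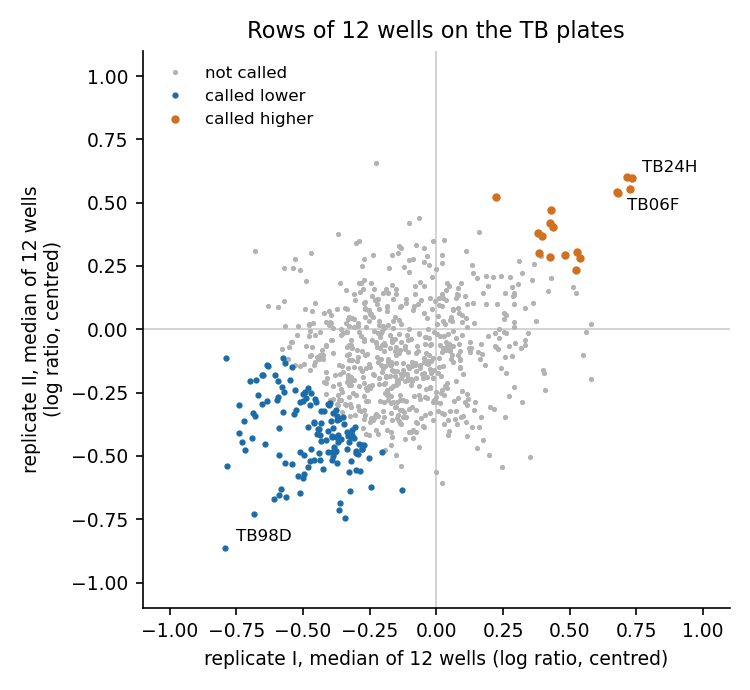
Each point is a row of 12 wells on a TB plate, with its median log ratio (minus the median of all tiles) in replicate I on the horizontal axis and in replicate II on the vertical axis; orange points were called higher and blue points lower by limma. TB24H (0.733 and 0.597) and its neighbours stand apart from the cloud at upper right, and TB98D (-0.791 and -0.862) lies at the lower left.

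The row medians led to the longest feature of the set, an island that crosses from plate TB24 to plate TB25. From TB24G11 to TB25C12, 50 consecutive wells were above 0.2 in both replicates, 14 of them on TB24 and 36 on TB25. In replicate I these tiles had a lowest value of 0.228, a median of 0.705 and a highest of 1.02, and in replicate II 0.313, 0.569 and 0.925. The replicates covered overlapping ranges, with replicate I the higher in its median. The island mean was 0.64 ± 0.0928 (SD, n = 2). The island was chosen for its values, so its mean is given with no test. In the tile fit over the whole array, 9 of the 50 tiles were called higher and 41 had a limma adjusted p above 0.05.

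The island was also level. Within rows of 12 wells the SD between tile means was 0.113 in TB25C, 0.113 in TB25B, 0.118 in TB24H and 0.14 in TB25A, against a median of 0.354 over the 800 TB rows, and these were the 4 smallest of all. Of the 20 windows of 12 wells with the smallest SD, 16 lay wholly in the island. The windows overlap, so these 16 are not separate observations. The smallest SD of any TB window was 0.0776 and the smallest outside the island was 0.107, so small spreads were not confined to the island. The replicates also differed less in the island. The SD of their difference was 0.131 over the island and 0.605 over all TB tiles. Evenness was not part of the rule that picked the island, although a floor of 0.2 keeps out low values.

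High wells also lay beyond both edges of the island, each time after lower ones. On the TB24 side the 12 wells before it had means of 0.303 and 0.151, between the island and the rest of TB. Most of them belong to TB24G (row medians 0.38 and 0.381, limma adjusted p = 0.0269). They were uneven: TB24G03 to TB24G06 had tile means from 0.512 to 0.604, TB24G07 had 0.00466, and TB24G08 to TB24G10 had 0.199 to 0.258. On the TB25 side the island ended with the last well of row C. Tile TB25C12 had 0.738 and 0.706, and the next tile, TB25D01, had 0.161 and -0.259. Farther on, TB25D06, TB25D07 and TB25D08 had tile means of 0.577, 0.759 and 0.751, and TB25D12 had -0.446. The other 60 wells of TB25 had medians of 0.114 (I) and 0.0717 (II), with an SD between tiles of 0.404 and 0.426. By their medians these 60 wells were thus close to the array's median, unlike the 36 island wells of the plate.

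**Figure D3:**
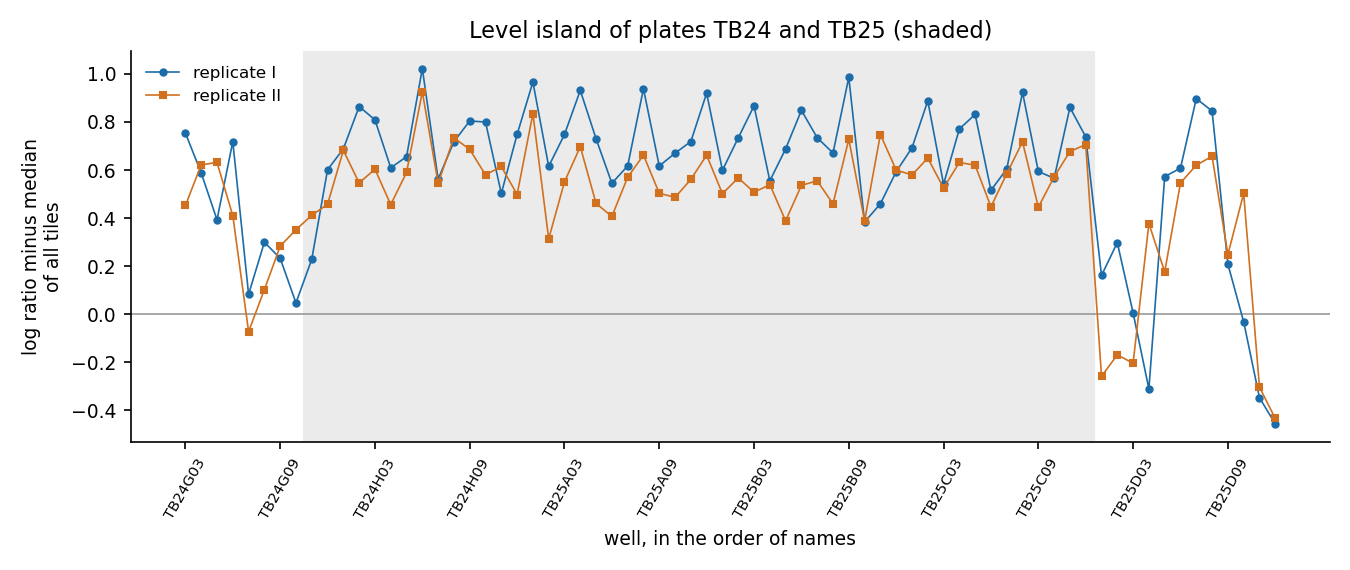
Log ratio minus the median of all tiles (vertical axis) of each well from TB24G03 to TB25D12 in the order of names, in blue for replicate I and orange for replicate II. The shaded island holds 50 wells between 0.228 and 1.02 in replicate I and between 0.313 and 0.925 in replicate II, and ends at TB25C12.

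Other islands were short. By the rule of at least 3 neighbouring tiles all called higher in limma, TB had only 2. The island of TB24 and TB25 was not among them, since it held no such run. TB06F05 to TB06F09 had 1.33, 1.6, 1.39, 1.06 and 0.988 in replicate I and 1.15, 1.49, 1.03, 1.07 and 0.588 in replicate II, with limma adjusted p-values from 0.000542 to 0.0437. Its values were highest at the second well and dropped on both sides, and the 12 wells before it had means of -0.00576 and -0.0455. TB63F03 to TB63F05 had 1.03, 1.33 and 1 in replicate I and 0.596, 0.985 and 0.613 in replicate II. It was part of a longer raised run, TB63E10 to TB63F05, in which 8 wells stayed above 0.2 in both replicates with values from 0.687 to 1.33 in replicate I and from 0.291 to 0.985 in replicate II. A further run of this kind, TB18G02 to TB18H04, held 15 wells with means of 0.549 and 0.488, of which 2 tiles were called. With at least 2 wells asked for, there were 13 runs of higher tiles. With the replicates scaled to the same median absolute deviation there were 0 runs of 3, since 5 TB tiles were then called higher in limma (501 at an unadjusted p under 0.05).

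Whether runs of low or of high tiles were more common depended on where 0 is set. With the array's median at 0 there were 22 runs of at least 3 tiles called lower and 2 of tiles called higher, and with the TB median at 0 there was 1 of lower and 8 of higher tiles. With the replicates scaled to the same median absolute deviation there were 0 runs of lower tiles (limma, 1408 single tiles at an unadjusted p under 0.05). With the array's median at 0, the 22 runs held 73 tiles, and the longest was TB98C12 to TB98D05 with 6 wells and means of -0.926 (I) and -0.997 (II). In the TA plates outside the stretches, 6898 tiles held 19 runs of higher tiles and 5 of lower ones. Of the tiles called higher in TB, 100 of 130 (76.9%) had no neighbour called higher, against 87 (38.5%) in those TA plates. Of the tiles called lower, 299 of 518 (57.7%) stood alone in TB and 162 (70.7%) in TA. These shares are descriptions, since no test of the difference was made. The shares of tiles called also differed, with 1.35% higher and 5.4% lower in TB and 3.28% and 3.32% in those TA plates (limma). How far this sets the shares standing alone was not tested. With the threshold at 0.01 TB had 1 island and 0 runs of lower tiles in limma (1542 single tiles were lower at an unadjusted p under 0.05).

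Isolated spikes were the other local feature described. A spike was a tile whose mean over replicates exceeded both neighbours by at least 1.5. TB held 10 of them on 7 plates, 0.104% of its 9592 tiles with both neighbours, where the share over all tiles was 0.0603%. The other sets held 3. Without plate TB40, TB held 6, so its share rested in part on 1 plate. All 10 were called higher in limma, 9 exceeded 1 in both replicates, and none of their 20 neighbours was called higher. The rule picks tiles well above their neighbours, so these counts were largely set by it and add no separate support.

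Plate TB40 carried 4 of the 10 spikes. Tile TB40E11 had 4.42 in replicate I and 3.87 in replicate II, against -0.0399 and 0.195 in TB40E10 and -0.29 and 0.171 in TB40E12. Its mean of 4.15 ± 0.386 (SD, n = 2, limma adjusted p = 1.265e-09) was the highest of the whole array. Tile TB40D06 had 3.39 and 3.37, and TB40C07 had 3.15 and 2.86, which made these 3 tiles the array's 3 highest means. TB40D06 lay beside TB40D05, at 1.36 in replicate I and 0.282 in replicate II, and TB40D07, at 0.0814 and -0.0895. TB40C07 lay between TB40C06 (-1.19 and 0.0901) and TB40C08 (-0.902 and -0.533), so its neighbours were low in replicate I. The fourth, TB40D11, had 2.01 and 1.60 between TB40D10 (-0.414 and -0.53) and TB40D12 (-0.039 and -0.0508). The outermost of the 4, TB40C07 and TB40E11, are 28 wells apart. TB40 had the largest SD between tile means of any TB plate, 0.79, and without the 4 spikes it had 0.425. Its replicates correlated at 0.829 over the plate's tiles and at 0.498 without the spikes.

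**Figure D4:**
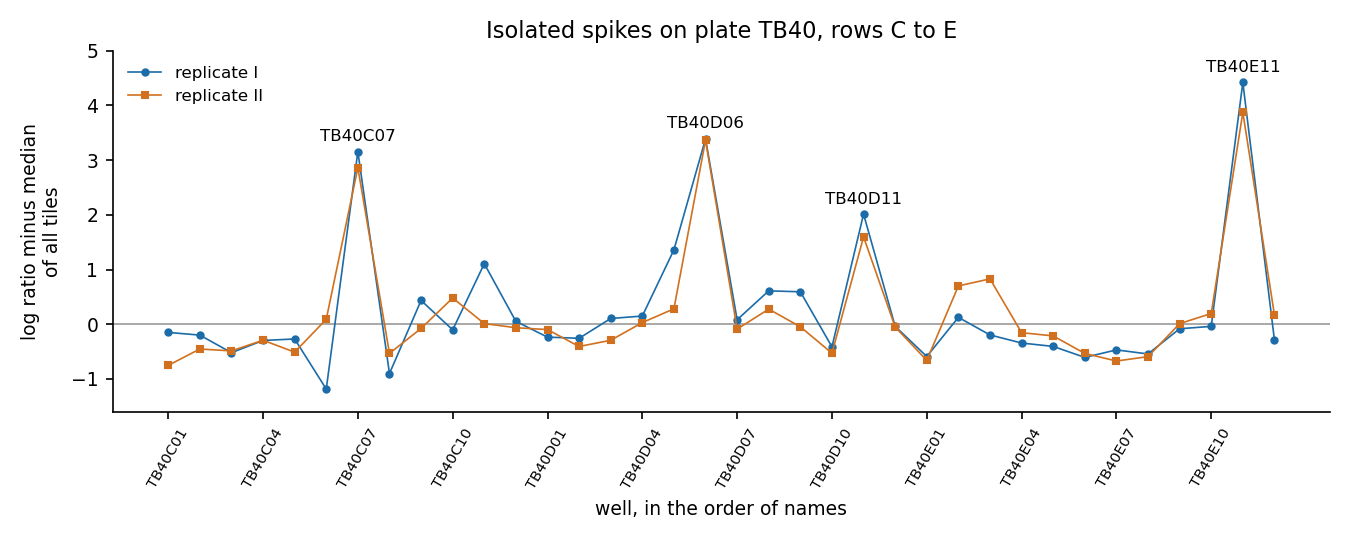
Log ratio minus the median of all tiles (vertical axis) of the 36 wells in rows C to E of plate TB40, in the order of names, in blue for replicate I and orange for replicate II. The 4 named tiles reach 2.01 to 4.42 in replicate I and 1.60 to 3.87 in replicate II, and the wells beside them return to values near 0 or below, apart from TB40D05 at 1.36 in replicate I.

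The other 6 spikes were single tiles on 6 plates. TB96D04 had 3.02 in replicate I and 1.98 in replicate II, and its neighbours TB96D03 and TB96D05 had means of -0.237 and -0.454. TB85G02 had 2.64 and 2.13 between TB85G01 (mean 0.165) and TB85G03 (mean -0.167). These ranked 5 and 7 among all tiles. TB68B08 had 1.91 and 1.67, with means of -0.174 in TB68B07 and 0.144 in TB68B09. TB63F07 had 1.17 and 1.81 between TB63F06 (mean -0.938) and TB63F08 (mean -0.642). That spike followed the raised run of TB63 after 1 low tile. TB12A11 had 1.49 and 1.39 between TB12A10 (mean -0.159) and TB12A12 (mean -0.545). TB89H05, the smallest, had 1.09 and 0.92 between TB89H04 (mean -0.974) and TB89H06 (mean -0.515), and limma gave it an adjusted p of 0.0106.

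Spikes and their opposite were not equally frequent. By the same height, 2 TB tiles lay under both neighbours, TB63F06 (-1.11 and -0.766) and TB58G03 (-1.11 and -0.699), and these were the only 2 on the array (0.00927% of tiles). The contrast of a tile with the mean of its neighbours was also fitted in limma over all tiles. It called 0 TB tiles above and 0 under their neighbours, as in the array as a whole (0.00% in each direction), with 694 and 709 TB tiles at an unadjusted p under 0.05. The smallest adjusted p was 0.308. The spikes are therefore called as high tiles, and their excess over the neighbours was not.

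Over all single tiles, the test of the mean against 0 called 130 TB tiles higher (1.35%) and 518 lower (5.4%), where 8.24% and 3.88% of all tiles were called (limma). By size, 24 TB tiles were above 1 in both replicates (0.25%) and 57 under -1 in both (0.594%). Over all tiles these shares were 2.83% and 0.419%. The shares over all tiles include the high stretches. Other tiles outside them had 2.9% called higher and 3.64% lower, and TC00 to TC13 had 1.17% and 6.16% (limma). By size the shares were 0.64% and 0.384% outside the stretches, and 0.312% and 0.702% in TC00 to TC13. The tile counts depend on the fit. With only TB tiles in the fit, 15 were higher and 5 lower, all of them among the 130 and the 518. Centring on the TB median turned the balance, with 325 tiles higher and 225 lower in limma, and 45 above 1 and 13 under -1 in both replicates. A trended, robust prior gave 218 higher and 923 lower tiles. With the replicates scaled to the same median absolute deviation, the 5 tiles called in limma were TB40E11, TB40D06, TB40C07, TB85G02 and TB96D04, each with an adjusted p of 0.0485, and 0 were lower (1408 at an unadjusted p under 0.05).

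The lowest called tiles were isolated to different degrees. TB94F09 had -1.83 in replicate I and -1.57 in replicate II (limma adjusted p = 0.0001895), and its neighbours had means of -0.204 and -1.22. TB95C06 had -1.34 and -1.67 with neighbours at -0.617 and 0.0671, TB77H03 had -1.47 and -1.42 with neighbours at -0.315 and 0.403, and TB92D10 had -1.42 and -1.42 with neighbours at -0.802 and -0.542. Each was low in both replicates.

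The replicates were weakly correlated. Over TB tiles, which share arrays and are not independent, Pearson's r between the replicates was 0.305, against 0.421 in the TA plates outside the stretches and 0.275 in TC00 to TC13. It was 0.286 without the 10 spikes. Within plates it ran from -0.0146 (TB41) to 0.829 (TB40), with a median of 0.258. Of 172 TB tiles above 1 in replicate I, 67 were under 0 in replicate II, and of 160 above 1 in replicate II, 74 were under 0 in replicate I.

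Neighbouring wells resembled each other mainly within a replicate. Neighbouring TB tiles correlated at 0.378 (I) and 0.361 (II), but only 0.12 when the tile came from one replicate and the neighbour from the other. For replicate I minus replicate II the correlation of neighbours was 0.36, and 0.073 at 2 wells apart. In the TA plates outside the stretches the value between replicates was 0.24, while that of the difference was 0.371. All of these are descriptions over pairs that share tiles and arrays. Down the columns of a plate the correlation within TB was 0.0456 and 0.0252, so the resemblance followed the order of names.

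**Figure D5:**
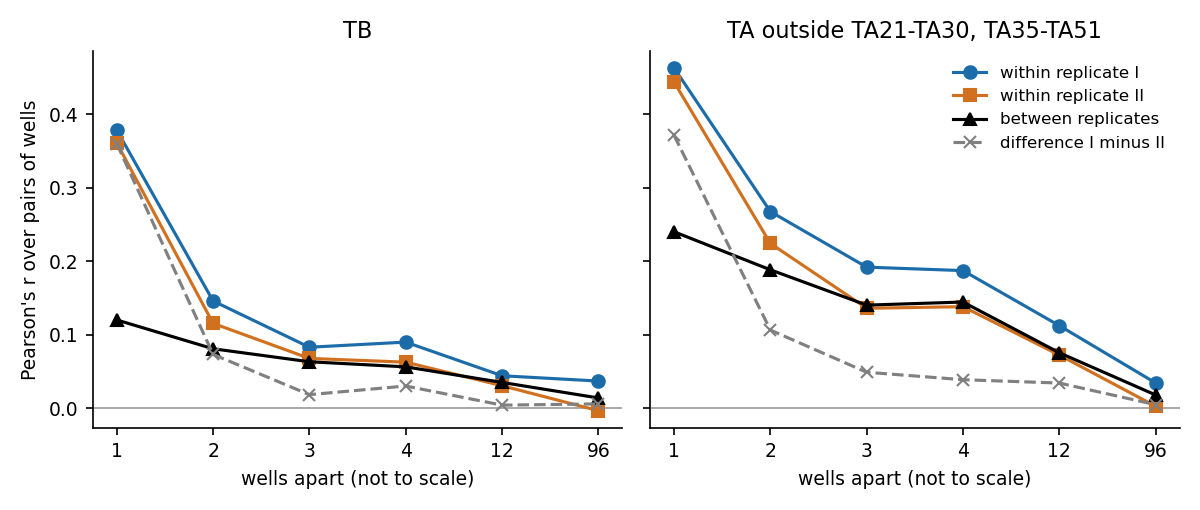
Pearson's r between wells 1, 2, 3, 4, 12 or 96 apart in the order of names (horizontal axis, not to scale), for TB at left and the TA plates outside the 2 high TA stretches at right. Lines show values within each replicate, between replicates and for the difference I minus II; at 1 well apart TB has 0.378, 0.361, 0.12 and 0.36.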

How the data were processed

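Dual-colour arrays of genomic tiles were hybridised with H4K20me1 IP and INPUT DNA of 2 replicates. The deposited table gives 1 value per spot and array, treated as a score: a log ratio of unstated base and direction for which the sources used here give no scanner, background correction or normalization. The deposited columns of each dye swap were identical and were averaged to 1 value per replicate. The median over all tiles was subtracted from each replicate, with no loess or quantile step. Tiles, plate medians, medians of rows of 12 wells (at least 6 values) and tile minus the mean of its 2 neighbours were each fitted over the whole array with limma 3.58.1 in R 4.3.3 (mean against 0, eBayes, two-sided, 1 residual degree of freedom), with Benjamini-Hochberg adjustment and a threshold of 0.05. The prior degrees of freedom were 21.66 for tiles, 4.631 for plates, 3.798 for the neighbour contrast and infinite for rows of wells. The tile fit was tested on simulated data. The labels and layout define TB, but the members, rules and lists were chosen with earlier results of these data known. Named are the 6 highest and 6 lowest plates and rows of wells, the 4 highest and 4 lowest called tiles, all spikes with their neighbours, the longest runs, and all blocks of 10 plates. Runs of at least 8 wells above 0.2 in both replicates were defined after the values were seen. Tables and plots were made in Python 3.11.15 with SciPy 1.17.1, pandas 2.3.3, numpy 2.4.6 and matplotlib 3.10.9. The number of arrays limits the precision. Gene names, positions and sequences of tiles were not used here.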

Additional observations from a re-analysis of the deposited data

How the results depend on the processing

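No paired analysis was possible because all samples belong to 1 group. Of 103 alternatives for 16 results, 35 stayed alike, 68 moved and 0 reversed. Alike meant counts within 1.5 times, values within 1 SD of the replicates, and the correlation of replicates within its 95% limits. A count cannot change sign, so for counts the 0 was fixed in advance. With the TB median at 0 the balance of tiles turned, from 130 higher and 518 lower to 325 and 225 (limma). Of 170 alternatives for 26 named tiles and plates, 31 ended a call, 2 made one and 0 reversed one. The 2 new calls were of TB70 (limma adjusted p = 0.0266 with scaled replicates and 0.0477 with trend and robust prior). All 14 named tiles had a limma adjusted p above 0.05 with plate medians removed. Leaving out TB24 and TB25, TB40 or the island, runs with the TB median at 0, and the island rule itself, were chosen after seeing the data.

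Pairs below give higher, then lower. With no centring, 5 and 9059 tiles, 0 and 100 plates (limma, also 0 higher unadjusted), 0 and 800 rows of wells (limma, 0 higher unadjusted), and by size 3 and 6118. With the mode, 281 tiles, 5 plates and 40 rows lower, and 33 under -1. With the TB median, 325 and 225 tiles, 2 and 1 plates, 26 and 10 rows, 8 and 1 runs, and 45 and 13 by size. With scaled replicates, 5 and 0 tiles (limma, 501 and 1408 unadjusted), 2 and 62 plates, 8 and 55 rows, 0 and 0 runs, and 1 tile above its neighbours. With trend and robust prior, 218 and 923 tiles, 2 and 61 plates. With only TB fitted, 15 and 5 tiles. With plate medians removed, 0 and 0 tiles (limma, 805 and 732 unadjusted), 44 and 11 by size, and a correlation of neighbours of 0.344 (from 0.37). At 0.01, 40 and 107 tiles, 0 plates lower (limma, 52 unadjusted at 0.05), 6 and 51 rows, 1 and 0 runs. Runs of at least 2 wells were 13 and 95, and of at least 5 wells 1 and 1. Down the columns, runs were 0 and 4, spikes 16, and the correlation of neighbours 0.0354. Spikes were 35 at a height of 1, 6 at a height of 2, 6 without TB40, and 17 to 19 in single replicates. Single replicates gave 160 to 172 tiles above 1 and 273 to 344 under -1, a TB difference of -0.341 to -0.254, and a correlation of neighbours of 0.361 to 0.378. Without the 3 high stretches the TB difference was -0.115, and without the spikes the correlation of replicates was 0.286. A threshold of 0.01 lowers counts by construction, and without centring most values lie under 0; elsewhere the cause was not tested. Log ratios do not show signal over background.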

Other observations

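Inside the island of TB24 and TB25, neighbouring wells did not resemble each other as they did elsewhere in TB. Over the 48 wells of rows TB24H to TB25C, the correlation of a well with the next was -0.212 (I) and -0.242 (II). With the well 3 on it was 0.326 and 0.226, and with the well 7 on 0.435 and 0.295. At other distances the replicates differed, with -0.398 and 0.000294 at 2 wells, -0.401 and 0.0854 at 5, and 0.502 and 0.00812 at 14. Between wells of different replicates, over distances of 1 to 14 wells, the correlation ran from -0.303 at 12 wells to 0.339 at 7. The 8 highest tiles of these rows lay 7, 3, 4, 4, 9, 5 and 6 wells apart, so they followed no single step. The replicates shared 8 local highs, among 14 (I) and 16 (II), and correlated at 0.588 over the 48 wells. This was noticed in the values and is a description over few wells, with no test.

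Lower tiles were spread unevenly over the columns of a plate. In columns 1, 2 and 12, 7.08% of TB tiles were called lower, against 4.83% in columns 3 to 11, and 1.08% against 1.44% were called higher. Of the 22 runs of lower tiles, 13 held a well of column 12 or 1, and 7 held wells of both, from the end of one row to the start of the next. A run of at least 3 wells covers an end of a row of 12 at many positions by layout alone. The counts of runs were not compared with a share from random placement. The columns were grouped after their values were seen. Row C had the most lower tiles, 7.75%, and row H the fewest, 3.58%.

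Some high means rested on 1 replicate. Tile TB79B02, with a mean of 1.66 (limma adjusted p = 0.00302), had 0.587 in I and 2.73 in II.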
